A study of Mus musculus with 33 samples.

Results

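The genes described here encode the enzymes and regulators of fatty acid synthesis. There were 10 of them among the 54532 rows of the count table, taken by symbol: Thrsp, Srebf1, Acly, Acss2, Me1, Acaca, Fasn, Elovl6, Scd1 and Scd2. The list was chosen by pathway and by the levels (CPM) measured in these same tumours, so their levels, differences and calls are given as descriptions. The calls come from fits over all genes and stand beside the share of all genes called, and nothing is read from them. RNA of 33 mouse mammary tumour samples was sequenced, 32 of which could be placed in 6 groups by their titles. The tumours of the treated groups had been transplanted into mice, which received vehicle or RP-6306 at 20 mg/kg. RP-6306 is a compound that blocks PKMYT1, a kinase that keeps CDK1 inactive until mitosis. The study asked how tumours of cyclin E transgenic mice respond to this inhibitor over different periods, and how they compare with PyMT tumours.

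All groups had the genotype FVB, an inbred strain. The group M20_7 had received RP-6306 (n = 4) and the group VEH_7 vehicle (n = 3), and both have titles ending in _7. The group MYT had received RP-6306 (n = 11) and the group VEH vehicle (n = 4), with titles that lack this suffix. The groups SPON (n = 5) and WT (n = 5) were untreated. Not stated in the labels are the meaning of the suffix, SPON or WT, which samples carried the cyclin E transgene or PyMT, which promoter drove it, how long treatment lasted, and whether animals were pooled. Because no tumour line is given, an effect of RP-6306 and a difference between tumour lines cannot be told apart in any of the treated comparisons. The sample left out has a title that says vehicle and a treatment field that says RP-6306.

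Cells build fatty acids in the cytosol from acetyl-CoA, which ATP citrate lyase (Acly) makes from citrate and acetyl-CoA synthetase (Acss2) from acetate, and from NADPH, part of which comes from malic enzyme (Me1). Acetyl-CoA carboxylase (Acaca) makes malonyl-CoA, fatty acid synthase (Fasn) joins the units into palmitate, Elovl6 extends palmitate to stearate, and the stearoyl-CoA desaturases Scd1 and Scd2 add a double bond. Srebf1 encodes SREBP-1, the transcription factor best known for switching these genes on, and Thrsp encodes Spot 14, a small protein without known enzyme activity that is abundant in fat, liver and the lactating mammary gland. In mice, loss of Thrsp lowers the fat content of milk, and the mammary epithelium raises the whole pathway at lactation.

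The promoters of Thrsp and Srebf1, whose levels in every WT tumour lay above all other samples, and of Fasn, which encodes the synthase, were taken from RefSeq on GRCm38.p6, with each window running from 250 bases before to 50 bases after an annotated start, written 5′ to 3′ along the gene. All of them lie on the minus strand. Capitals mark CCAAT, the box bound by the factor NF-Y, read on either strand (ATTGG on the other strand), and GGGCGG, the GC box of the SP1 family, read on either strand (CCGCCC on the other). For Srebf1, which has 3 listed starts, the window of the start with both motifs is shown.
Thrsp, chr7:97417501-97417800: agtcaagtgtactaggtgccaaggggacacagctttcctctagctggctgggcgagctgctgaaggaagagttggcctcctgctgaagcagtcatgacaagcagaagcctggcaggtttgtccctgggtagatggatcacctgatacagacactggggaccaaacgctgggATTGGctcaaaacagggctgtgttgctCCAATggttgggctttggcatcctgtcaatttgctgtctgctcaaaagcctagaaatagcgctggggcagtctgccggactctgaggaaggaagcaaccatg
Srebf1, chr11:60210422-60210721: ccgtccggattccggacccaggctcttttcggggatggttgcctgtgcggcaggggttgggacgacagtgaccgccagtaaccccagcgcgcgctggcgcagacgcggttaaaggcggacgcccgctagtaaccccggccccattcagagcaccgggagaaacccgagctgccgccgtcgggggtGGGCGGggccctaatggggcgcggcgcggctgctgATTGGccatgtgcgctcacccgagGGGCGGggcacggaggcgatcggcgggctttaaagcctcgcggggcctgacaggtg
Fasn, chr11:120824498-120824797: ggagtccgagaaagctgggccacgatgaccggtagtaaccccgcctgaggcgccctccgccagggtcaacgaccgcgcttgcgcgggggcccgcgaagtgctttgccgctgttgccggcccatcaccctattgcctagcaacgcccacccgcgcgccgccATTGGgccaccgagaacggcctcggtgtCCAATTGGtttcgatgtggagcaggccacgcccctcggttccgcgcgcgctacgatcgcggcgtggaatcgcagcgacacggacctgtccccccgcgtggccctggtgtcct
The window of Thrsp held CCAAT at -79 and -52 relative to the start, that of Srebf1 held it at -30, and that of Fasn held it at -90, -62 and -59, where the last pair overlaps. GGGCGG was found in the Srebf1 window at -65 and -6. Of the 10 genes, 8 had a listed promoter, in 11 windows, and Scd1 and Scd2 were not among them. CCAAT was present in 7 of the 11 windows, against 37.4% of the 32851 windows listed for all genes, and GGGCGG in 5 of the 11, against 35.7%. TCACNCCAC, a form of the sterol regulatory element (1.24% of all windows), the E box CACGTG (7.15%) and TTCNNNGAA, the core of STAT sites (8.3%), were found in 0 windows of the 8 genes on either strand, which says only that these letters are not in these windows.

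Libraries held 26517748 to 34637096 counts in the groups titled _7 and 13701115 to 20105407 in the other groups. Levels are CPM, read counts scaled to a common library size with TMM factors over the 33 libraries. SPON replicates 1 and 5 had the lowest TMM factors, 0.768 and 0.698. The groups differed widely in cell type markers: the summed CPM of 15 luminal epithelium genes was 42.8 to 92.8 in M20_7 and 35.6 to 119 in VEH_7, 4880 to 12700 in MYT and 632 to 1860 in VEH, and 5240 to 12400 in SPON and 5090 to 6760 in WT. The tumours titled _7 are labelled as mammary, and their Epcam, an epithelial adhesion gene, was at 3.59, 5.35, 1.79 and 5.22 CPM in M20_7 and 9.74, 0.977 and 4.31 CPM in VEH_7. It was between 657 and 1693 CPM in SPON and WT tumours. In pieces of tissue such as these, fewer cells of a type and less RNA per cell cannot be told apart.

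**Figure D1:**
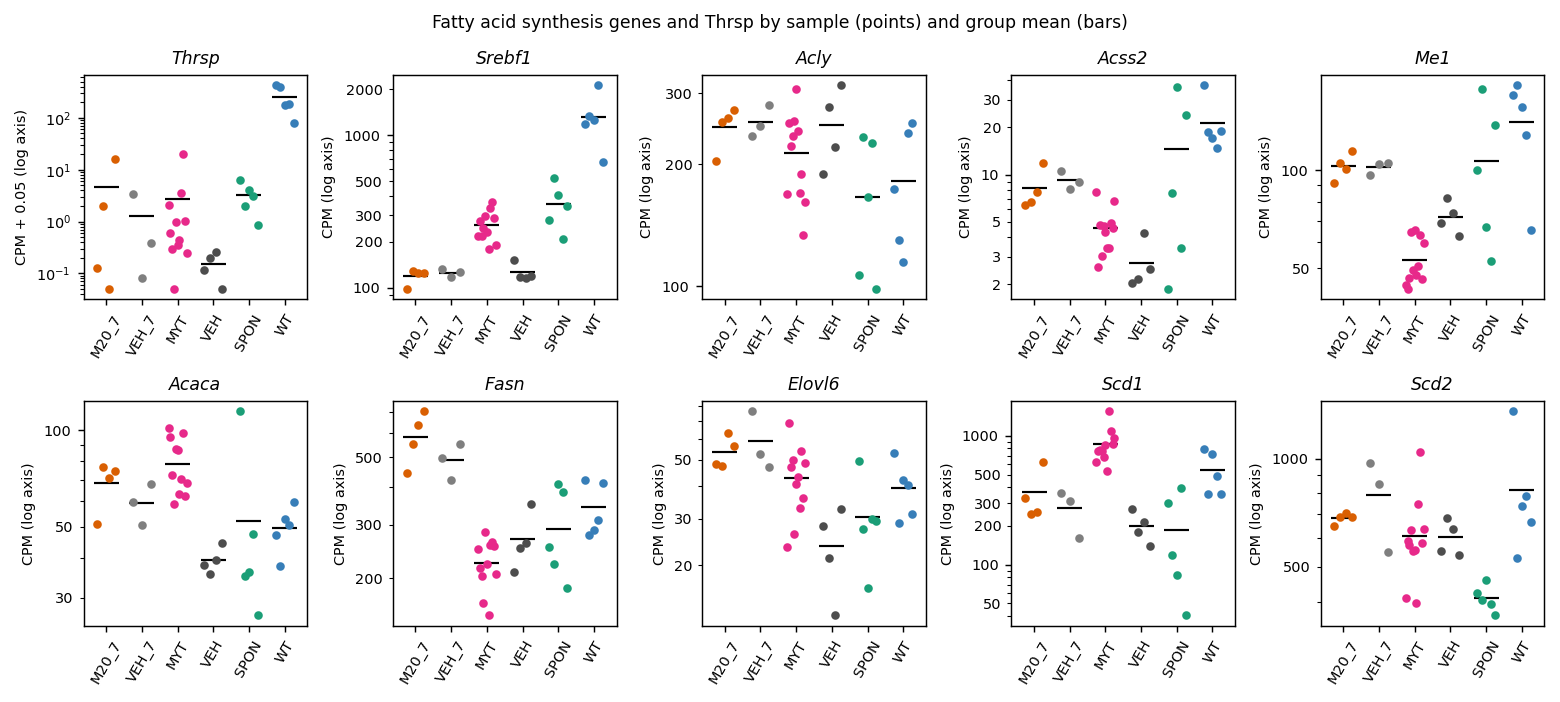
CPM of the 10 genes in each of the 32 grouped samples (points; log axes; Thrsp as CPM + 0.05) with the group mean as a bar. For Thrsp and Srebf1 the 5 WT tumours lie above all other samples, Scd1 has its highest mean in MYT, and the groups overlap for Acly.

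Thrsp (chromosome 7, 97412938 to 97417730 on GRCm38) had its highest levels in the WT tumours. It stood at 6.15, 1.91, 3.95, 3.1 and 0.791 CPM in SPON and at 434, 396, 175, 187 and 78.9 CPM in WT. In MYT it ranged from 0 to 20.3 CPM with a median of 0.542, and in VEH it stood at 0.0653, 0.144, 0.207 and 0 CPM. It stood at 0.0756, 1.93, 0 and 16.4 CPM in M20_7 and at 3.3, 0.0326 and 0.345 CPM in VEH_7. Every WT tumour lay above every other sample, and the WT mean of 254 ± 153 CPM (SD, n = 5) was 55.3 times the next highest group mean, that of M20_7. Below WT, neighbouring groups in the order M20_7, SPON, MYT, VEH_7 and VEH all overlapped. The low values rest on few reads, with 1, 2, 3 and 0 counts in the 4 VEH libraries. The samples at 0 were M20_7 replicate 3, MYT replicate 4 and VEH replicate 4, where a count of 0 allows up to 0.0957, 0.186 and 0.214 CPM, for counting error only. Single libraries also stood out within the low groups, at 16.4 CPM in M20_7 replicate 4 and 20.3 CPM in MYT replicate 9.

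Srebf1 (chromosome 11, 60199089 to 60222581) showed the same top group. It stood at 277, 523, 408, 209 and 345 CPM in SPON and at 1189, 1328, 1248, 2135 and 664 CPM in WT. In MYT it ranged from 181 to 365 CPM with a median of 247, against 151, 118, 116 and 120.3 CPM in VEH. In the tumours titled _7 it was near the VEH values, at 98.4, 129, 126 and 126 CPM in M20_7 and 133, 117 and 128 CPM in VEH_7. Again all 5 WT tumours lay above the other 27 samples, and all 11 MYT tumours lay above all 4 VEH tumours. Means were 352 ± 121 CPM in SPON and 1313 ± 528 CPM in WT (SD, n = 5 each), a WT level 3.72 times the next, and VEH, VEH_7 and M20_7 overlapped. Thrsp and Srebf1 were the members of the 10 for which every WT sample exceeded all others. This pattern was found for 1.81% of 13063 genes with a mean log2 CPM of at least 1, a cutoff that was not applied to the 10. Srebf1 overlaps Rai1 on the opposite strand, and the labels do not record whether the libraries kept strand. Reads from that overlap therefore cannot be told apart.

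The enzymes that supply acetyl-CoA and NADPH did not share this pattern. Acly (chromosome 11, 100476353 to 100528000) stood at 107, 233, 166, 226 and 98.3 CPM in SPON and 174, 129.7, 115, 239 and 254 CPM in WT. It ranged from 134 to 308 CPM with a median of 222 in MYT, against 189.6, 277, 220.3 and 315 CPM in VEH. In M20_7 it was at 204, 255, 261 and 273 CPM, against 236, 248 and 281 CPM in VEH_7. Its group means ran from 166 CPM in SPON to 255 CPM in VEH_7, and all neighbouring groups overlapped.

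Acss2 (chromosome 2, 155517948 to 155585724) had the lowest group mean per exon length of the enzymes in each of the 6 groups. Its levels were 1.87, 7.65, 35.9, 3.42 and 23.8 CPM in SPON and 37.3, 18.5, 17.2, 14.7 and 18.9 CPM in WT. They ranged from 2.57 to 7.69 CPM with a median of 4.57 in MYT and were 2.03, 2.17, 4.22 and 2.5 CPM in VEH. In M20_7 they were 6.43, 6.65, 7.79 and 11.8 CPM, against 10.5, 8.11 and 8.96 CPM in VEH_7. WT had the highest mean and VEH the lowest, but SPON spanned nearly the whole range, with replicates 3 and 5 within the WT range and replicate 1 below all VEH tumours. Acss2 overlaps Gss, Ggt7 and Acss2os on the opposite strand, with the same limit as for Srebf1.

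Me1 (chromosome 9, 86581371 to 86695953) was at 100.5, 178, 67.1, 52.6 and 138 CPM in SPON and 170.5, 184, 157, 128 and 65.3 CPM in WT. In MYT it ranged from 43.1 to 65.5 CPM with a median of 49.2, against 69, 82.4, 73.8 and 62.7 CPM in VEH. In the tumours titled _7 it was at 91.2, 105, 101 and 115 CPM in M20_7 and 97.2, 105 and 106 CPM in VEH_7. MYT had the lowest mean, and all VEH_7 tumours lay above all VEH tumours, an order whose share over all genes was not counted.

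The enzymes that build the chain peaked in different groups. Acaca (chromosome 11, 84129672 to 84401651) stood at 115, 35, 36, 47.3 and 26.4 CPM in SPON and 47.2, 37.8, 52.8, 50.7 and 59.8 CPM in WT, with SPON replicate 1 the highest of the 32 samples and replicate 5 the lowest. In MYT it ranged from 58.9 to 102 CPM with a median of 72.4, against 37.9, 35.6, 39.5 and 44.6 CPM in VEH. It stood at 50.8, 77.1, 71.3 and 74.8 CPM in M20_7 and 59.8, 50.6 and 68.1 CPM in VEH_7. All MYT tumours thus lay above all VEH tumours, while every neighbouring pair in the order of the group means overlapped. Fasn (chromosome 11, 120805846 to 120824547), which encodes the synthase itself, was highest in the tumours titled _7, at 442, 550.5, 634 and 708 CPM in M20_7 and 495, 419 and 552 CPM in VEH_7. It ranged from 151 to 285 CPM with a median of 222 in MYT, against 209.5, 250.5, 261 and 351 CPM in VEH. In SPON it stood at 253, 222, 407, 383 and 186 CPM and in WT at 421, 277, 288, 309.9 and 412 CPM. Of the 25 samples outside the groups titled _7, 24 lay below the lowest of the 7 samples in them. The share of all genes with this order was not counted, so nothing is read from it.

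Elongation and desaturation genes followed yet other orders. Elovl6 (chromosome 3, 129532355 to 129638495) stood at 49.6, 27.4, 16.3, 29.8 and 29.3 CPM in SPON and 52.9, 28.9, 41.8, 40.3 and 31.3 CPM in WT. It ranged from 23.4 to 68.7 CPM with a median of 43.1 in MYT, against 28, 21.3, 12.9 and 32.5 CPM in VEH. In M20_7 it was at 48.1, 47.3, 63 and 56.6 CPM, against 76.5, 52.7 and 46.9 CPM in VEH_7. Its neighbours in the order VEH_7, M20_7, MYT, WT, SPON and VEH all overlapped.

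Scd1 (chromosome 19, 44394455 to 44407879), the desaturase that dominates in liver and fat, was at 299.9, 119, 83.7, 391 and 40.3 CPM in SPON and 786, 351, 719, 487 and 352 CPM in WT. It ranged from 536 to 1561 CPM with a median of 781 in MYT, against 272, 179, 215 and 138 CPM in VEH. In M20_7 it was at 330.1, 248, 257 and 630.2 CPM, against 361, 310.4 and 161 CPM in VEH_7. MYT had the highest mean, and its lowest tumour lay above every VEH tumour and every SPON tumour. For MYT above SPON the share of all genes was not counted. Scd2 (chromosome 19, 44293674 to 44306864), the paralog best known from brain, was at 422, 404, 459.6, 396 and 367 CPM in SPON and 1355, 529, 737, 789 and 667 CPM in WT. It ranged from 396 to 1045 CPM with a median of 581 in MYT, against 553, 684, 638 and 539 CPM in VEH. In M20_7 it was at 650.4, 687, 706 and 686 CPM, against 974, 848 and 551 CPM in VEH_7. SPON had the lowest mean of Scd2, and its 5 samples lay below all 4 VEH samples, where the share of all genes was likewise not counted.

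Expressed per kilobase of annotated exon, which allows genes to be compared, Srebf1 led the list in WT with 233 CPM per kb, ahead of Scd2 (149), Thrsp (116) and Scd1 (110.2), as group means. In MYT the level per kb was highest for Scd1 (176), followed by Scd2 (112) and Srebf1 (45.9). In M20_7 it was highest for Scd2 (125), followed by Scd1 (74.9) and Fasn (53.3). WT had the highest group mean for 5 of the 10 genes, Thrsp, Srebf1, Acss2, Me1 and Scd2. VEH_7 had it for Acly and Elovl6, M20_7 for Fasn, and MYT for Acaca and Scd1.

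The ratio of the paralogous desaturases separated MYT from VEH, as Scd1 did alone, while Scd2 overlapped between these groups. Of all genes tested, 16.9% had MYT wholly above VEH. The ratio of Scd1 to Scd2, per exon length, ranged from 1.16 to 2.33 in MYT with a median of 1.52, and was 0.55, 0.292, 0.377 and 0.287 in VEH. It was 0.567, 0.404, 0.406 and 1.03 in M20_7 and 0.414, 0.409 and 0.326 in VEH_7. In SPON it was 0.793, 0.33, 0.204, 1.1 and 0.123, and in WT 0.648, 0.742, 1.09, 0.69 and 0.59. Scd1 thus exceeded Scd2 in 11 of 11 MYT tumours and in 0 of 4 VEH tumours, and in 1 tumour each of M20_7, SPON and WT. Of all stretches of 75 bases in the exons of Scd1, 1.62% also occur in Scd2, and the read length is not stated in the labels.

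**Figure D2:**
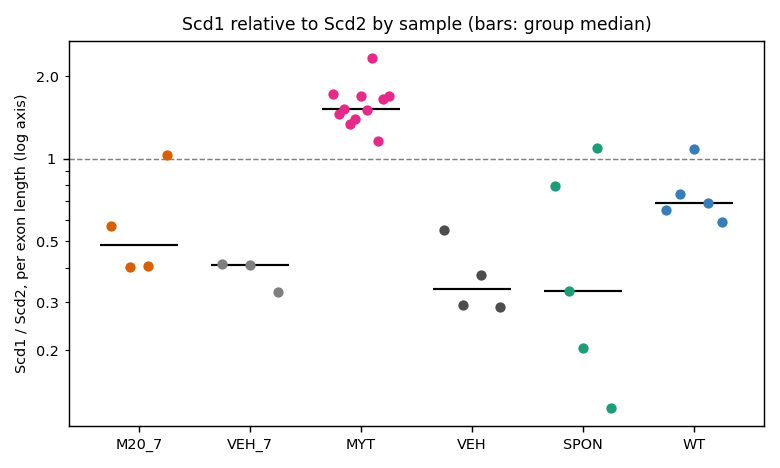
Ratio of Scd1 to Scd2 level, each per annotated exon length, in every grouped sample (points; log axis) with the group median as a bar and a dashed line at 1. All 11 MYT tumours lie above 1 and all 4 VEH tumours below it.

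In the comparison of SPON with WT, Thrsp and Srebf1 had the largest log2 fold changes of the 10 genes. The edgeR test over 15558 genes called 3 of the 10 genes lower in SPON, where 3.86% of all genes tested were called lower, and 0 higher, where 4.52% were (8.38% in either direction). The called genes were Thrsp, with a log2 fold change of -6.30 ± 0.66 (SE) and means of 3.18 ± 2.04 CPM in SPON and 254 ± 153 CPM in WT (SD, n = 5 each), Srebf1 (-1.89 ± 0.34) and Scd2 (-0.98 ± 0.27). These 3 were also the genes whose SPON and WT samples did not overlap, against 5.45% of all genes with SPON below WT. Leaving out any 1 of the 10 samples kept the calls of Thrsp (-6.69 to -6.05) and Srebf1 (-2.08 to -1.68), while that of Scd2 was lost whichever sample was left out (-1.10 to -0.74). Scd1 had a log2 fold change of -1.50 ± 0.56, which edgeR did not call and DESeq2 called lower. The synthesis enzymes had values of -0.23 ± 0.27 for Fasn, 0.08 ± 0.37 for Acaca, -0.12 ± 0.32 for Acly, -0.39 ± 0.36 for Me1, -0.34 ± 0.29 for Elovl6 and -0.56 ± 0.67 for Acss2. The value of Acaca was -0.45 without SPON replicate 1 and that of Acss2 -1.23 without SPON replicate 3. Without SPON replicates 1 and 5 together, the values were -6.41 for Thrsp, -1.78 for Srebf1 and -0.95 for Scd2, and 2 of the 10 genes were called.

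Few genes of the wider pathway, taken from lists outside the 10, were called between SPON and WT. The same held for all genes tested, of which 3.86% were called lower and 4.52% higher. Of 24 other fatty acid synthesis genes tested, 1 fell in SPON and 0 rose. It was Scd3, a further desaturase paralog, at 3.19, 1.08, 2.25, 1.68 and 1.66 CPM in SPON and 8.11, 6.03, 4.16, 6.82 and 4.12 CPM in WT (log2 fold change -1.55 ± 0.39, edgeR adjusted p = 0.035), and the call was lost without any 1 of 7 of the 10 samples (adjusted p up to 0.0916). Of 16 regulators of lipogenesis 0 were called, with Mlxipl, which encodes the glucose-responsive factor ChREBP, at 3.5, 8.58, 9.74, 5.49 and 6.17 CPM in SPON and 8.94, 15, 15.3, 11.6 and 17.5 CPM in WT (-1.03 ± 0.33, adjusted p = 0.0784). Mid1ip1, the paralog of Thrsp, stood at 19.6, 19.6, 89.7, 27.8 and 20.3 CPM in SPON and 37.1, 15.5, 27.3, 18 and 15.6 CPM in WT (0.65 ± 0.46, edgeR adjusted p = 0.404). Its groups overlapped, and SPON replicate 3 alone lay above all WT tumours. Of 22 cholesterol synthesis genes, 9 fatty acid uptake genes and 16 fatty acid oxidation genes, 0 were called in either direction. Of 11 glycerolipid and droplet genes 1, Gpat4, was called higher in SPON (log2 fold change 0.85). Its call was lost without any 1 of 9 of the 10 samples. The median log2 fold change was -0.21 for the other fatty acid synthesis genes and 0.25 for cholesterol synthesis, against 0.07 for all genes tested and -0.47 for the 10 genes.

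The WT tumours also stood apart in some genes of milk secretion. Csn3, which encodes the kappa casein of milk, stood at 346, 39.2, 270.2, 453 and 41.4 CPM in SPON and 15170, 8023, 14660, 10580 and 5083 CPM in WT (log2 fold change -5.51 ± 0.81, edgeR adjusted p = 0.00438). Lalba, the alpha-lactalbumin gene, stood at 0.27 ± 0.22 CPM in SPON and 196 ± 72.9 CPM in WT, and Wap, the whey acidic protein gene, at 0.212 ± 0.25 CPM in SPON and 34.4 ± 19.2 CPM in WT (SD, n = 5 each). Both passed the filter on low counts through the WT samples, so their levels are given without a fold change. The main caseins of mouse milk, chosen after their values were seen, did not share this order. Csn2, the beta casein gene, was at 2.22 to 95.3 CPM in SPON and 1.11 to 67.1 CPM in WT, and Csn1s1, the alpha casein gene, at 1.36 to 122 CPM in SPON and 10.1 to 116 CPM in WT. Both were higher in MYT, at 119.9 to 1227 CPM for Csn2 and 459 to 1255 CPM for Csn1s1. Of 10 milk and alveolar genes tested 4 were called lower in SPON, where 3.86% of all genes were, and 0 higher. They were Csn3, Xdh, Lalba and Wap. Since Lalba and Wap passed the filter through the WT samples, nothing is read from their calls. The call of Xdh was lost without any 1 of 4 of the 10 samples. The summed CPM of the list of 11 was 373 to 2500 in SPON and 7420 to 17500 in WT, where Csn3 was most of it. The luminal epithelium list had 0 of 15 genes called between SPON and WT, where 8.38% of all genes were called in either direction. Of 12 mesenchymal genes 2 were called higher in SPON, and of 10 macrophage genes 2, where 4.52% of all genes were. Those calls, of Twist1, Pdgfrb, Lyz2 and Mrc1, were each lost without some single samples. The summed CPM of the mesenchymal list was 1180 to 6680 in SPON and 720 to 2100 in WT. The part of milk-secreting cells in the levels of Thrsp and Srebf1 was not tested.

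Thrsp is also abundant in fat cells, whose markers were measured beside it. Adipoq, which encodes the fat cell hormone adiponectin, stood at 0, 0.0517, 1.23, 0.194 and 0 CPM in SPON and 1.93, 0, 0, 0 and 1.84 CPM in WT. Plin1, which coats the fat droplet of these cells, stood at 0, 0.0517, 1.36, 0 and 0.474 CPM in SPON and 0.773, 0, 0, 0 and 0.557 CPM in WT. WT replicates 2, 3 and 4, with 0 counts of both, had 396, 175 and 187 CPM of Thrsp. Other markers of the list were present in these replicates, with Plin4 at 2.92, 3.33 and 3.585 CPM and Car3 at 4.89, 1.31 and 0.15 CPM. In SPON, Plin4 was at 0.156 to 1.29 CPM. The part of fat cells in the WT levels of Thrsp was not tested. The summed CPM of 14 adipocyte markers was 131 to 343 in SPON and 174 to 250 in WT. Of 7 tested 1, Plin4, was called lower in SPON, where 3.86% of all genes were. Plin4 passed the filter on low counts through the WT samples, so nothing is read from its call. In the tumours titled _7 the order was different. M20_7 replicates 2 and 4, which had the most Thrsp of that group at 1.93 and 16.4 CPM, also had the most Adipoq, at 3.51 and 8.45 CPM, and the most Plin1, at 2.16 and 11.1 CPM. VEH_7 replicate 1, with 3.3 CPM of Thrsp, had 0.455 CPM of Adipoq and 1.9 CPM of Plin1. MYT replicate 9, with the most Thrsp outside WT at 20.3 CPM, had 0.0684 CPM of Adipoq and 0 CPM of Plin1. The sums of the 14 markers were 68.3 to 348 CPM in M20_7 and 74.9 to 126 CPM in VEH_7, and the part of fat tissue in those Thrsp values was not tested.

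**Figure D3:**
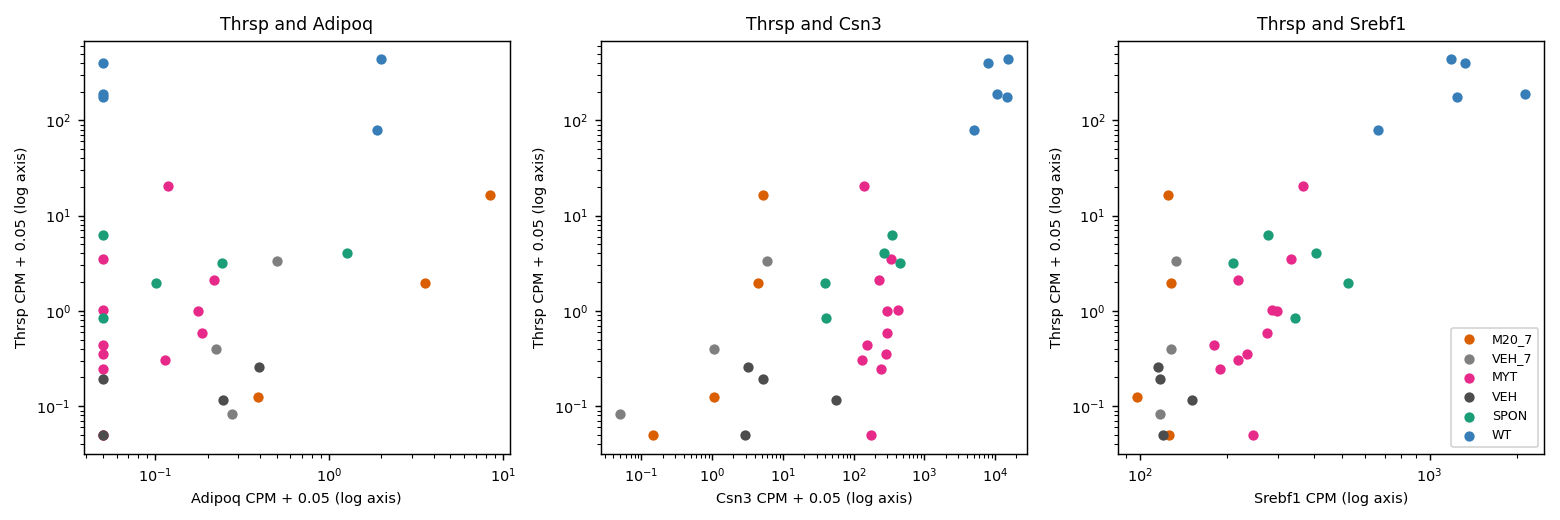
Thrsp CPM in each grouped sample against the CPM of Adipoq (fat cells), Csn3 (milk) and Srebf1, on log axes with 0.05 added to all but Srebf1. The WT tumours sit at the top in every panel, at Adipoq values from 0 to 1.93 CPM, and have the highest Csn3 and Srebf1 levels.

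Between MYT and VEH, the tumours differed in most genes tested, and 7 of the 10 genes were called among them. The edgeR test over 16021 genes called 6 of the 10 higher in MYT, where 30.5% of all genes were called higher, and 1 lower, where 29% were (59.5% in either direction). Scd1 had a log2 fold change of 2.10 ± 0.26 (SE), with means of 861 ± 276 CPM in MYT (SD, n = 11) and 201 ± 56.9 CPM in VEH (SD, n = 4), or 4.28-fold. Srebf1 had 1.04 ± 0.18 and Acaca 1.0 ± 0.16. For these 3 genes the groups did not overlap, against 16.9% of all genes with MYT above VEH. Elovl6 had 0.86 ± 0.27 and Acss2 0.75 ± 0.29, and Me1 was the gene called lower at -0.44 ± 0.12. Fasn (-0.25 ± 0.16), Acly (-0.23 ± 0.19) and Scd2 (0.02 ± 0.20) were not called. The call of Acss2 was lost without any 1 of 5 of the 15 samples, with values of 0.64 to 1.04 over the 15. Thrsp, 1 of the 6 called higher, had 4.59 ± 1.70, but this rests on 6 counts over the 4 VEH libraries. Thrsp passed the filter on low counts through MYT samples alone, so nothing is read from its call. Without it 5 of the 10 were called higher. Its value was 3.03 without MYT replicate 9, and its call was lost without any 1 of the 4 VEH samples and in limma voom.

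Other lipid genes were called in both directions in this comparison, as were all genes, of which 30.5% were called higher and 29% lower. Of 25 other fatty acid synthesis genes 10 rose and 9 fell in MYT, with a median log2 fold change of 0.14 against 0.04 for all genes tested and 0.80 for the 10 genes. Among them Elovl7, an elongase of long saturated chains, rose (49 ± 12.2 CPM in MYT and 2.37 ± 1.91 CPM in VEH, 4.36 ± 0.37, edgeR adjusted p = 6.04e-08; 5.12 without VEH replicate 1), as did Tecr, which completes each elongation cycle (0.80 ± 0.10, adjusted p = 2.1e-06). Elovl5, an elongase of polyunsaturated chains, fell (-0.56 ± 0.08, adjusted p = 2.24e-05). Of 16 regulators 4 rose and 4 fell. Usf1, a factor that binds E boxes of lipogenic promoters, rose by 0.83 ± 0.11 (adjusted p = 7.45e-06), Nr1h2, the liver X receptor beta gene, rose by 0.48 ± 0.09 (adjusted p = 0.000148), and Ppargc1b, a coactivator of SREBP, had -2.69 ± 0.39 (adjusted p = 1.79e-05, lower). Mid1ip1, the paralog of Thrsp, fell, at 26.8 ± 4.72 CPM in MYT and 43.5 ± 13.3 CPM in VEH (-0.69 ± 0.17, adjusted p = 0.00175). Leaving out any 1 sample kept the calls of the genes named in this comparison from outside the 10.

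Cholesterol synthesis, the branch that the related factor SREBP-2 is known to govern, had 9 genes that rose and 2 that fell of 22 in MYT, with a median of 0.42. Fdps, the farnesyl diphosphate synthase gene, and Ebp, a sterol isomerase gene, rose by 1.06 ± 0.18 and 0.95 ± 0.15 (edgeR adjusted p = 9.77e-05 and 4.71e-05). Of 9 genes of fatty acid uptake 4 fell and 1 rose. The gene that rose was Fabp5, a fatty acid binding protein gene named after its value was seen, with 395 ± 179 CPM in MYT and 65.2 ± 51.8 CPM in VEH (2.60 ± 0.51, adjusted p = 0.000288), and the groups overlapped. Cd36, a fatty acid transporter (-3.26 ± 0.40, adjusted p = 3.08e-06), Gpihbp1, which anchors lipoprotein lipase to capillaries (-2.11 ± 0.31, adjusted p = 1.94e-05), and Lpl, the lipase itself (-2.07 ± 0.35, adjusted p = 7.98e-05), were the leading ones that fell. Of 17 oxidation genes 5 rose and 4 fell, with Acadl (1.54 ± 0.13, adjusted p = 3.88e-08) higher and Cpt1a, the gate of mitochondrial fatty acid entry (-1.08 ± 0.15, adjusted p = 1.18e-05), lower. Of 12 glycerolipid and droplet genes 4 rose and 2 fell, including Agpat2 (0.90 ± 0.14, adjusted p = 2.74e-05).

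Cell type markers differed along with these genes. In MYT 15 of 15 luminal epithelium genes rose, 7 of 9 milk and alveolar genes rose and 1 fell, and 11 of 12 mesenchymal genes, 10 of 10 macrophage genes and 8 of 8 endothelial genes fell. The summed CPM of the 12 mesenchymal genes was 2210 to 6730 in MYT and 21300 to 35300 in VEH, and that of the 11 milk genes 2620 to 5730 in MYT and 507 to 1120 in VEH. The part of these cell types in the differences of the 10 genes was not tested. The adipocyte list summed to 104 to 189 CPM in MYT and 67.7 to 118 CPM in VEH, with Adipoq at 0.167 CPM or less in MYT and 0.346 CPM or less in VEH. Most of the sum in MYT was Pnpla2, at 80.9 to 125 CPM in MYT and 30.7 to 46.9 CPM in VEH. Plin4 went the other way, at 0.064 to 0.835 CPM in MYT and 1 to 4.25 CPM in VEH. Of 6 genes of this list tested 2 were called higher, where 30.5% of all genes were, and 2 lower, where 29% were.

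Between M20_7 and VEH_7, no difference in the 10 genes exceeded the spread between samples. The edgeR test over 16699 genes called 0 of the 10 and 0% of all genes. Before adjustment, 1033 genes had a p under 0.05, and 0 of them were among the 10. DESeq2 called 55 genes and limma voom 0, and again 0 of the 10. The log2 fold changes were 0.26 ± 0.17 (SE) for Fasn, 0.20 ± 0.16 for Acaca, -0.04 ± 0.12 for Acly, 0.01 ± 0.10 for Me1 and -0.17 ± 0.23 for Acss2. They were -0.13 ± 0.18 for Elovl6, -0.21 ± 0.17 for Scd2, -0.08 ± 0.12 for Srebf1 and 0.40 ± 0.36 for Scd1, where the last was 0.00 without M20_7 replicate 4. Thrsp had 1.93 ± 1.68, which became -0.83 without M20_7 replicate 4 and 4.60 without VEH_7 replicate 1. Without M20_7 replicates 2 and 4 together it was -4.95 ± 1.99, which rests on 2 and 0 counts in M20_7 replicates 1 and 3. For all 10 genes the ranges of M20_7 and VEH_7 overlapped, where 3.1% of all genes had M20_7 wholly above and 3.58% wholly below VEH_7. The wider lists had 0 genes called as well, with medians of 0.05 for other fatty acid synthesis, 0.02 for cholesterol synthesis and 1.72 for 12 adipocyte markers, against 0.01 for all genes.

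**Figure D4:**
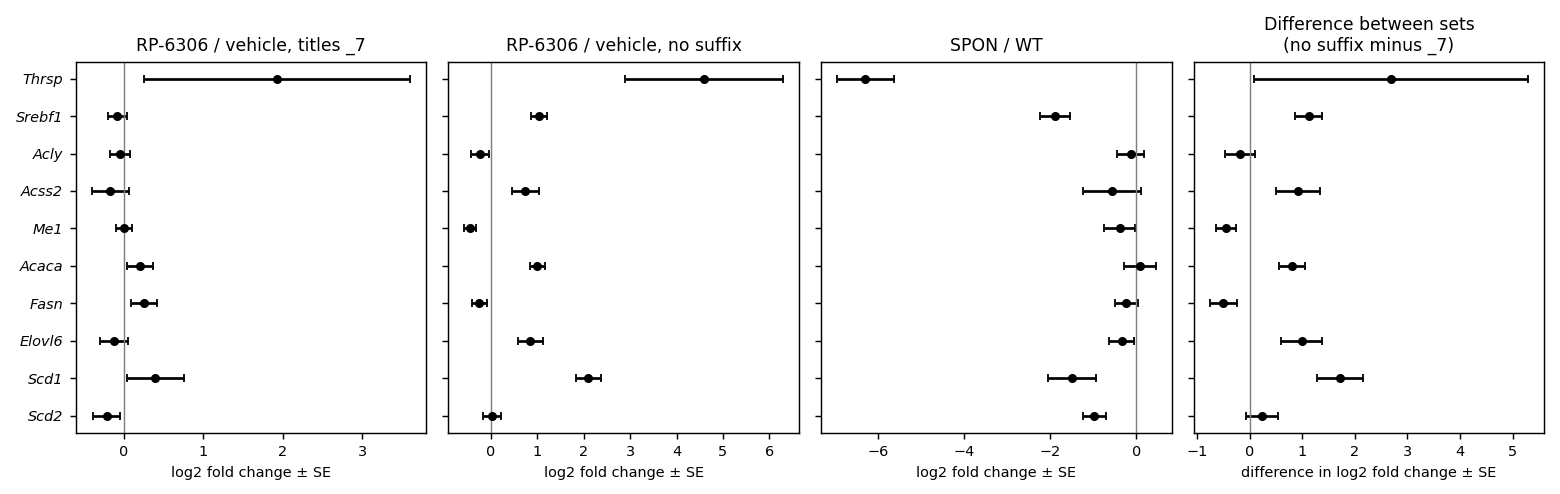
Log2 fold change (points) and its SE (bars) of the 10 genes in M20_7 against VEH_7, MYT against VEH and SPON against WT, and the difference of the 2 RP-6306 fold changes. Values lie near 0 in the set titled _7 apart from Thrsp, Scd1 is highest of the enzymes in MYT against VEH, and Thrsp and Srebf1 lie farthest below 0 in SPON against WT.

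The log2 fold change of MYT over VEH minus that of M20_7 over VEH_7 was fitted as a contrast of its own. Of the 10 genes 4 were called higher and 0 lower, where 17% and 18.9% of the 17095 genes tested were (36% in either direction). They were Scd1 (1.71 ± 0.44, SE), Srebf1 (1.12 ± 0.25), Elovl6 (0.99 ± 0.39) and Acaca (0.81 ± 0.24). In 1 fit over the 32 samples only Srebf1 of these 4 was called. The call of Elovl6 was lost without any 1 of 14 of the 22 samples, with values of 0.74 to 1.17. Not called were Acss2 (0.93 ± 0.42), Scd2 (0.24 ± 0.30), Acly (-0.18 ± 0.28), Me1 (-0.44 ± 0.19), Fasn (-0.50 ± 0.26) and Thrsp (2.69 ± 2.61), which was 0.02 without VEH_7 replicate 1 and 5.42 without M20_7 replicate 4. Of 25 other fatty acid synthesis genes 7 were higher and 6 lower, and of 22 cholesterol synthesis genes 3 were higher and 2 lower. Of the luminal epithelium markers 12 of 15 were higher and 0 lower in the same contrast.

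Within groups, correlations among the 10 genes depended on the samples taken. Across the 32 samples, with each value taken as its deviation from its group mean of log2 CPM, Pearson's r over the 45 pairs had a median of 0.09 and ranged from -0.50 to 0.51. It was below 0 for 18 pairs and above 0.5 for 1 pair, Me1 with Srebf1, which had 0.51 by Pearson's r and 0.19 by Spearman's rho. Srebf1 had r of -0.02 with Fasn, -0.06 with Scd1, -0.14 with Acaca and 0.32 with Thrsp. Thrsp had r of 0.42 with both Fasn and Scd1. Within the 11 MYT tumours alone, the largest group, r of Srebf1 was 0.70 with Fasn, 0.62 with Scd1, 0.32 with Acaca, 0.68 with Thrsp, 0.74 with Scd2 and 0.08 with Me1. With the remaining genes r of Srebf1 was below 0 there, at -0.01 for Elovl6, -0.15 for Acly and -0.24 for Acss2. In the same tumours r of Scd1 with Scd2 was 0.79. Among 11762 other expressed genes, those most like Thrsp were Mrpl50 (r of 0.62), Ascc1 (0.60) and G0s2 (0.59), and those most like Srebf1 were Mettl7a1 (0.76), Kctd12b (0.76) and C4b (0.72). Fasn was most like Ythdc2 (0.82), Rbm27 (0.75) and Kpna6 (0.73), and Scd1 most like Tgm1 (0.77), Dcaf12 (0.76) and Zfp618 (0.73). These neighbours depended on the measure and the samples. By Spearman's rho the 3 leading genes were others for Thrsp, the same for Fasn, and in part others for Scd1 and Srebf1, and within the MYT tumours alone they were others for each of the 4. These values share libraries and scaling and describe likeness only.

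**Figure D5:**
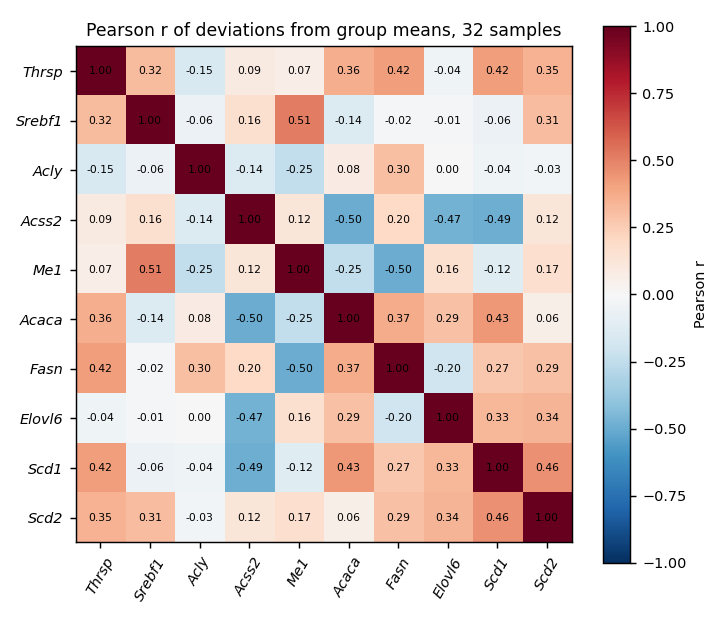
Pearson's r between the 10 genes over 32 samples, computed on deviations of log2 CPM from the group means. The pooled values have a median of 0.09 and Me1 with Srebf1 is the highest at 0.51, while the MYT tumours alone, not drawn, gave 0.08 for that pair.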

How the data were processed

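RNA was extracted with Trizol and sequenced by a commercial provider, per the labels' protocols. STAR 2.7.10a, HTSeq and edgeR were used with the build GRCm38, per the submitters' processing notes, and the annotation release and strandedness are not given in the sources used here. The treatment protocol gives 20 mg/kg RP-6306 per day and the treatment field a twice-daily abbreviation. The authors deposited raw counts for 54532 genes, of which the 791 rows without a symbol hold 0.0482% of the counts and stayed in the fits under their identifiers. They also deposited log2 CPM values, which differed from log2 CPM recomputed here by at most 0.0576 and were not used further.

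Replicates were numbered in accession order and pair nothing. No library repeated another, since all 90 within-group pairs exceeded sampling noise, with a chi-square of at least 16.1 per degree of freedom. Separate animals are not stated for the samples of a group, so the p-values reflect only the spread between samples, which may be technical.

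Each comparison was fitted on its own groups over all genes with the quasi-likelihood test of edgeR 4.0.16 (R 4.3.3) after filterByExpr and TMM scaling, and called at a Benjamini-Hochberg adjusted p below 0.05. The SE was taken from the F statistic. Fits were tested on simulated counts. Alternatives were DESeq2 size factors, library totals, limma voom (limma 3.58.1), DESeq2 1.42.0, no filter on low counts, 1 fit over the 32 samples and each sample left out in turn. Leaving out SPON replicates 1 and 5, or M20_7 replicates 2 and 4, was chosen after seeing the data. The 10 genes, the 16 gene lists (186 of 187 entries matched) and the tests were chosen with earlier results of these data known. Outside the 10, the text names markers and regulators set in advance, up to 3 genes with the smallest p of each list and comparison, and the 3 genes most like Thrsp, Fasn, Scd1 and Srebf1. Scd3 and Mid1ip1 fall under this rule. Not every gene that this rule allows is named, and Srebf2, Insig1, Slc25a1, Acacb and Vim, set in advance, are among those left out. Gene positions and exon lengths came from GENCODE M21 on GRCm38, and promoters from RefSeq on GRCm38.p6.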

Additional observations from a re-analysis of the deposited data

Results flagged for a closer look

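In 5 of the 40 sets of values tested (10 genes in each group of 4 to 10 samples), 1 sample lay far from the others. Chance alone gives about 1 in 20. Thrsp was at 16.4 CPM in M20_7 replicate 4, the sample with the most Adipoq of the 32. Srebf1 was low at 98.4 CPM in M20_7 replicate 1 and high at 151 CPM in VEH replicate 1. Acaca reached 115 CPM in SPON replicate 1, which had a low TMM factor, and Acss2 reached 37.3 CPM in WT replicate 1.

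The log2 fold change of MYT over VEH exceeded that of M20_7 over VEH_7, in a test of the difference itself, for Scd1 (1.71), Srebf1 (1.12), Elovl6 (0.99) and Acaca (0.81), among 36% of all genes for which the sets differed. The genes were chosen on these same values, so this is a description and supports nothing. In 1 fit over the 32 samples only Srebf1 of the 4 was called. RP-6306 and tumour line cannot be told apart in this contrast.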

How the results depend on the processing

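No paired analysis was possible because the labels give no replicate numbers, and numbers given in accession order pair nothing. With each sample left out in turn, the number of the 10 genes called was 0 in the set titled _7, 4 to 6 higher and 1 lower in MYT against VEH, and 0 higher and 2 lower in SPON against WT. For the difference between sets it was 3 to 4 higher and 0 to 1 lower, against 0 lower with all samples. The 1 lower gene was Me1, called without VEH replicate 4 or MYT replicate 4, 6 or 9. In 1 fit over the 32 samples, which shares 1 estimate of the spread, 0 genes were called lower in MYT against VEH (1 in the fit on its own groups) and 1 was called higher for the difference between sets (4 in the fit on its own groups). The cause was not tested. No value of the 10 genes reversed a call under any alternative run, and the group with the highest mean did not change under another scaling for any of the 10. Thrsp outside WT rests on few counts, and its fold changes there depend on single samples.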

Other observations

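The sample whose title says vehicle and whose treatment field says RP-6306 entered no comparison. Its Thrsp was at 0.11 CPM, Srebf1 at 147 CPM, Fasn at 326 CPM and Acaca at 44.6 CPM. Acly was at 267 CPM, Acss2 at 3.89 CPM, Me1 at 63.2 CPM and Elovl6 at 16.3 CPM. Scd1 was at 180.2 CPM and Scd2 at 299.7 CPM, with a ratio of 0.672 per exon length.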
